A study of Mus musculus with 2 samples.

Results

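The genes described here encode the soluble factors that start and extend protein synthesis. They were taken by symbol: every gene whose name begins with Eif1 to Eif6 or with Eef1 or Eef2, leaving out the Y-linked Eif2s3y and pseudogene symbols. This gave 68 of the 31053 genes in the deposited matrices, of which 67 are annotated as protein-coding in GENCODE M21. The remaining symbol, Eif2c5, is annotated as a lincRNA and had 0 UMIs (unique molecular identifiers, the counted RNA molecules) in both libraries. The measurements are single-cell RNA counts (10x Genomics Chromium) from dissociated midbrain tissue of C57BL/6 mice aged 10 weeks at the start of dosing. There were 2 libraries. The MNPQ library came from mice given paraquat at 10 mg/kg by intraperitoneal injection and maneb at 30 mg/kg 1 hour later, on 2 days a week for 3 weeks, and the control library from mice that the protocol describes as saline-injected and another label calls untreated. The tissue was punched from a brain slice presumed to hold the substantia nigra. The protocol describes 3 males drawn at random per group, while the sex label reads as pooled, and the cells of a group's mice form 1 library. With 1 library per group no test between groups was possible, mice and libraries cannot be told apart from treatment, and every interval given here is a 95% interval of counting error only.

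Initiation begins when eIF2 carries the initiator tRNA to the small ribosomal subunit, where eIF1, eIF1A, eIF3 and eIF5 help to find the start codon of an mRNA whose cap is held by the eIF4 group. The exchange factor eIF2B recharges eIF2 with GTP, and kinases that sense amino acid lack, heme, double-stranded RNA or unfolded protein slow this step by phosphorylating eIF2, which is the entry to the integrated stress response. In elongation, eEF1A brings each aminoacyl-tRNA to the ribosome, eEF1B recharges eEF1A, and eEF2 moves the ribosome along by a codon. The 2 eEF1A forms are known for their division between tissues: Eef1a1 is made in most cells, and Eef1a2 takes its place in mature neurons and in heart and skeletal muscle.

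The starts of 4 of these genes are shown because the results turn on them: the eEF1A pair, whose balance differed between cell types, eEF2, and the RNA helicase gene Eif4a1. Each line holds the 250 bases before the RefSeq transcription start (build GRCm38.p6, from the strand of the gene), and no annotated exon overlaps these 4 windows. Capitals mark a CACGTG or TATAAA match.
Eef1a1, chr9:78481725-78481974, minus strand: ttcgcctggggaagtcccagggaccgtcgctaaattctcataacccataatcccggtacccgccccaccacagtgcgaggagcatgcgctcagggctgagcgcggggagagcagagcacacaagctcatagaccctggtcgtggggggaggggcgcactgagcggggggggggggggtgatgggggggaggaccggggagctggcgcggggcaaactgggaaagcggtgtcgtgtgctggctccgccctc
Eef1a2, chr2:181157016-181157265, minus strand: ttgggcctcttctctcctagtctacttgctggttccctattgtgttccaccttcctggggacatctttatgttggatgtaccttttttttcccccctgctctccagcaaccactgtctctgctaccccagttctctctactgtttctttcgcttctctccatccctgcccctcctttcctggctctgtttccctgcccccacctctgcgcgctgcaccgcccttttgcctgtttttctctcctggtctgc
Eef2, chr10:81176381-81176630, plus strand: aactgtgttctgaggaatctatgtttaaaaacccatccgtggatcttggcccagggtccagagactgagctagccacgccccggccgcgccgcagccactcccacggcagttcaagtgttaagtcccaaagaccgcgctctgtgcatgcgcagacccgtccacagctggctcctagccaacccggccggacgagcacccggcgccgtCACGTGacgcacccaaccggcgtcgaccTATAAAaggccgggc
Eif4a1, chr11:69672424-69672673, minus strand: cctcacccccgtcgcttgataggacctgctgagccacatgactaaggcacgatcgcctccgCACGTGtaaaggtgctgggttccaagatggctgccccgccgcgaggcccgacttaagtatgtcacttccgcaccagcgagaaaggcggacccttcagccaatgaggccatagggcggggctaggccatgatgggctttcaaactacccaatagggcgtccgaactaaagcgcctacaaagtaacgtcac

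The 2 eEF1A windows differed in composition. The Eef1a1 window holds 68% G or C and 18 CpG pairs, and the Eef1a2 window 54% and 4. In the Eef2 window CACGTG begins 43 bases and TATAAA 15 bases before the start, and in the Eif4a1 window CACGTG begins 189 bases before it. RefSeq windows were found for 52 of the 68 genes, with 67 windows in all. CACGTG, which reads the same on both strands, was in 14 of the 67 windows (20.9%), belonging to 12 genes, and in 6.02% of all 32851 promoter windows of the same length. The genes were Eef1akmt4, Eef2, Eef2k, Eif1b, Eif3f, Eif3k, Eif4a1, Eif4e, Eif4g1, Eif4h, Eif5a and Eif5a2. TGACGTCA, which also reads the same on both strands, was in 0 of the 67 windows and in 1.55% of all windows. TGATGNAAN, searched on both strands, was in 2 windows (2.99%), those of Eef2k and Eif2s3x, against 3.44% of all windows. TATAAA, on both strands, was in 4 (5.97%), those of Eef2, Eif2s1, Eif3b and Eif3f, against 12.4%. The median G and C content of the factor windows was 61.2%, with 18 CpG pairs, beside 52.4% and 6 over all windows. A letter match is a description and not a binding site.

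The control library held 1105 cell barcodes with 2209810 UMIs and the MNPQ library 965 with 2061939. Barcodes with at least 200 detected genes and at most 20% of UMIs from mitochondrial genes were kept, 882 of the control barcodes and 854 of the MNPQ ones, and their medians were 974 and 945.5 UMIs. The libraries shared 2 barcode sequences, 1 of them kept in both. Cells were clustered without the factor genes and named from marker lists, which gave 5 classes with at least 30 cells in each library. These were astrocyte-like (318 control and 298 MNPQ cells), microglia-like (193 and 139), neuron-like (123 and 147), endothelial-like (60 and 58) and oligodendrocyte-like (54 and 80) cells, all 5 rebuilt here and not the authors' names. The tissue is labelled as substantia nigra pars compacta, whose defining cells are dopamine neurons. Th, the rate-limiting enzyme of dopamine synthesis, had 1 UMI in the kept control cells and 0 in the MNPQ cells, and the dopamine transporter gene Slc6a3 had 1 and 0. The vesicular monoamine transporter gene Slc18a2 had 1 and 1. Ddc, the decarboxylase that also acts outside dopamine neurons, had 42 and 62 UMIs in all kept cells, of which 2 and 3 were in neuron-like cells. Slc17a7, a vesicular glutamate transporter best known from forebrain neurons, had a UMI in 24 of the 123 control and 64 of the 147 MNPQ neuron-like cells. Slc17a6, the other common vesicular glutamate transporter, went the other way, with a UMI in 17 and 6 of them. The enzymes of GABA synthesis were found in 8 and 16 (Gad1) and in 12 and 12 (Gad2). No result on neuron-like cells below is therefore a measurement of dopamine neurons.

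Factor transcripts made up 0.992% of the UMIs of kept control cells (19876 UMIs) and 1.12% of those of MNPQ cells (22032 UMIs). Of the 68 genes, 64 had at least 20 UMIs over both libraries. The other 4 were Eif4ebp3 (1 UMI), Eef1akmt3 (1 UMI), and Eif4e1b and Eif2c5 (0 UMIs each). A few genes supplied most of the counts. Eef1a1 gave 17.1% of all factor UMIs and Eif1, which guards the choice of start codon, 16.7%, and with Eef2, Eif4a1, Eif3f, Eef1g and Eif4a2 they reached 52.9%. These are orders of UMI counts and not levels per transcript length.

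Among the 5 compared classes, the share of UMIs from factor genes was lowest in astrocyte-like cells, at 0.684% of control and 0.853% of MNPQ UMIs. It was 1.17% and 1.28% in microglia-like, 1.17% and 1.27% in endothelial-like, 1.07% and 1.22% in oligodendrocyte-like and 1.05% and 1.06% in neuron-like cells. The neuron-like intervals of the 2 libraries overlapped (1.00 to 1.10% and 1.02 to 1.12%), and those of the other 4 classes did not. Smooth muscle-like cells, too few to be compared between libraries, stood at 1.29% and 1.45%, and oligodendrocyte precursor-like cells at 0.556% and 0.942%.

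Eef1a2, the neuronal and muscle form of eEF1A, was the factor that set neuron-like cells apart most. In these cells it had 9 UMIs in the control library, in 8 of 123 cells, and 43 UMIs in the MNPQ library, in 33 of 147 cells, with at most 2 and 3 UMIs in any cell. That is 49.1 CPM (UMIs of the gene per 1000000 UMIs of the class; 22.5 to 93.2) and 265 CPM (191 to 356). The MNPQ level was 5.39-fold the control level, a log2 ratio of 2.43 (1.37 to 3.65), and the intervals of the 2 levels did not overlap. All other kept cells together held 8 and 22 UMIs, or 4.40 and 12.2 CPM. Eef1a2 lies at chr2:181147653-181157014 on the minus strand (mm10).

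Eef1a1, by contrast, was at the same level in the neuron-like cells of both libraries within counting error. It had 263 control and 240 MNPQ UMIs, or 1435 CPM (1267 to 1619) and 1477 CPM (1296 to 1676), a log2 ratio of 0.04 (-0.22 to 0.30). A single control cell held 56 of the 263 UMIs. Eef1a1 lies at chr9:78478449-78489151 on the minus strand, and reads from its processed pseudogenes could be counted with it or lost. The share of Eef1a2 among the UMIs of the pair, which does not depend on library depth or on the class total, was 3.31% (1.52 to 6.19) in control and 15.2% (11.2 to 19.9) in MNPQ neuron-like cells. In the other 4 classes it lay between 0 and 1.17% in both libraries, and each of those intervals lay below the neuron-like interval of the MNPQ library. Oligodendrocyte precursor-like cells, 17 and 9 in number, held 2 Eef1a2 UMIs of 12 and 1 of 10.

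**Figure D1:**
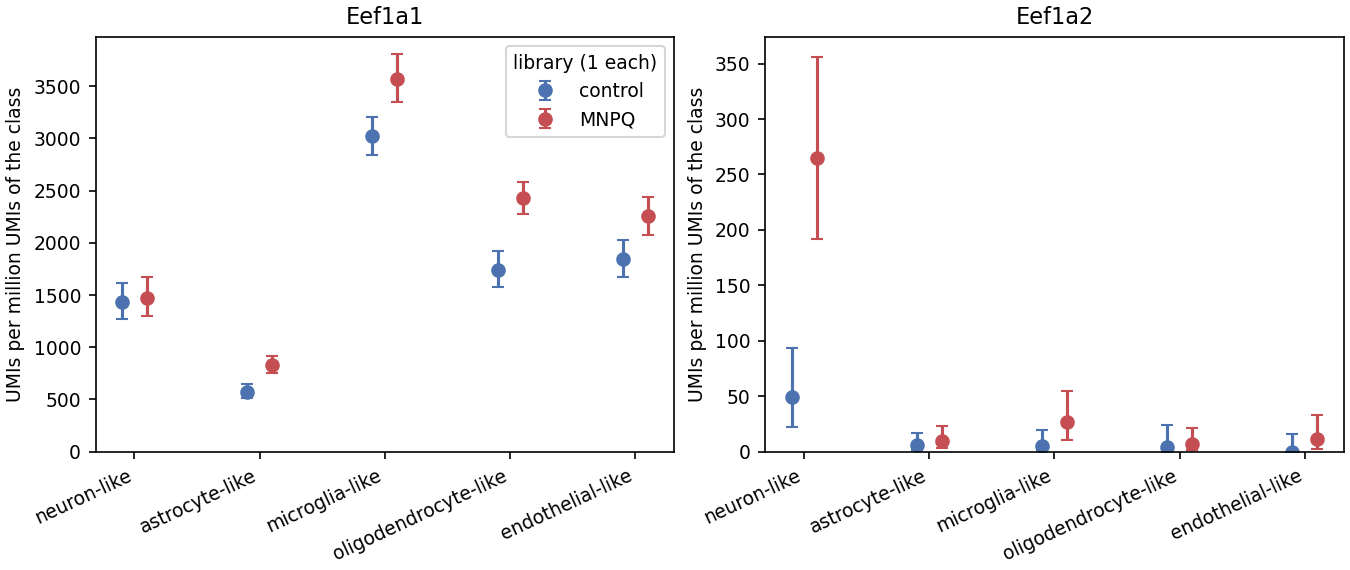
Level of Eef1a1 (left) and Eef1a2 (right) in CPM of the class total, for 5 cell classes and 1 library per group; points are levels and bars 95% Poisson intervals, which cover counting error only. Eef1a1 was highest in microglia-like cells, at 3020 and 3573 CPM, and Eef1a2 stood out in the neuron-like cells of the MNPQ library at 265 CPM.

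The share of neuron-like cells with an Eef1a2 UMI was 6.504% (2.85 to 12.4) for control and 22.4% (16.0 to 30.1) for MNPQ cells, at median depths of 787 and 763 UMIs. In microglia-like cells, which should lack this gene, it was 1.04% and 5.04% at median depths of 852 and 934. With each cell thinned to 500 UMIs the neuron-like shares were 2.44% and 18.4% and the microglia-like shares 0.518% and 2.88%. The neuron-like intervals of the 2 libraries did not overlap, with or without thinning. The microglia-like shares rested on 2 control and 7 MNPQ cells, and on 1 and 4 after thinning. Their intervals overlapped (0.13 to 3.69% and 2.05 to 10.1%, and after thinning 0.01 to 2.85% and 0.79 to 7.20%). Barcodes removed by the filter held 8 and 11 Eef1a2 UMIs, or 38.6 CPM (16.7 to 76.1) and 106 CPM (53.2 to 191).

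Other features of the neuron-like class differed between the libraries too. The summed level of the 18 neuronal markers was 20201 and 21170 CPM, with all 18 detected in both. That of the 12 oligodendrocyte markers in the same cells was 1855 and 3488 CPM, and that of the 16 astrocyte markers 2613 and 3039 CPM. The 4 markers of dividing cells summed to 349 and 240 CPM (64 and 39 UMIs), against at most 17.2 CPM in any other compared class. The part of these other markers in the Eef1a2 result was not tested. Among neuron-like cells with an Slc17a7 UMI, Eef1a2 had 5 control and 23 MNPQ UMIs, a log2 ratio of 2.10 (0.67 to 3.85), and its share of the pair was 16.1% and 28.4%. Among those without, it had 4 and 20 UMIs, a log2 ratio of 2.63 (1.05 to 4.64), and its share was 1.66% and 9.90%. The log2 ratio interval was above 0 on both sides of this split. The intervals of the share overlapped with an Slc17a7 UMI (5.45 to 33.7% and 18.9 to 39.5%). Without one they did not (0.45 to 4.19% and 6.15 to 14.9%). At these depths a cell without an Slc17a7 UMI may still express the gene, so the split cannot separate neuron types, and their mix was not tested. Eef1a1 was higher in MNPQ on one side (26 and 58 UMIs, log2 ratio 1.05, 0.36 to 1.78) and level on the other (237 and 182 UMIs, -0.07, -0.36 to 0.21). In the largest neuron-like cluster alone Eef1a2 had 7 and 40 UMIs, and the shares were 3.18% and 14.98%. Without the cell filter they were 6.97% and 22.1%.

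Across the cell classes, several factors kept the same place in both libraries. Each class was set against all other named cells of its library, and a factor is counted where it was past 1.5-fold in the same direction in both. Of 59 factors with enough UMIs, 8 were higher and 3 lower in neuron-like cells, beside 22.7% and 20% of all genes so called. Microglia-like cells had 6 higher and 6 lower (11.4% and 41.8% of all genes), endothelial-like cells 11 and 3 (18.4% and 24.2%), astrocyte-like cells 2 and 16 (11.5% and 35.7%) and oligodendrocyte-like cells 0 and 5 (12.7% and 29.9%). As a share of the 59, each count was below that of all genes, except the 11 higher in endothelial-like cells, which was level with it. These are descriptions of classes, with no test.

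Of the 11 genes of the eIF4 group with enough UMIs, 3 were counted as higher in neuron-like cells (Eif4g3, Eif4a2 and Eif4g1), 1 as lower (Eif4e2) and the others as neither. Of all genes, 22.7% were counted as higher in this class and 20% as lower. Eif4g3, a form of the scaffold eIF4G, stood at 262 CPM in control and 228 CPM in MNPQ neuron-like cells (48 and 37 UMIs), against 68.4 and 60.01 CPM in the other named cells. The log2 ratios were 1.94 (1.42 to 2.43) and 1.92 (1.34 to 2.48). Eif4a2, a helicase paralog of Eif4a1, stood at 867 and 708 CPM against 317 and 310 CPM, with log2 ratios of 1.45 (1.19 to 1.71) and 1.19 (0.89 to 1.48). Both genes were high in each library to nearly the same degree. Eif1a, Eif2a, Eif2s3x, Eif2ak1 and Eif5b were the other factors counted as higher, and Eef1d and Eif3f the others counted as lower. Eef1d, a subunit of the eEF1B exchange complex, was at 153 and 135 CPM in neuron-like cells and at 258 and 275 CPM elsewhere. Eef1a2 itself had too few control UMIs to be counted.

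Of the 5 compared classes, microglia-like cells had the highest Eef1a1 level, 3020 CPM (2844 to 3204) and 3573 CPM (3349 to 3809), from 1097 and 943 UMIs. This level differed between the clusters of the class. It was 2546 and 3180 CPM in the deeper cluster. In the shallower ones it was 4065 and 4331 CPM, and 4636 and 4694 CPM. Endothelial-like cells followed at 1844 and 2253 CPM and oligodendrocyte-like cells at 1740 and 2430 CPM, and the intervals of these 2 classes overlapped in both libraries. The neuron-like interval overlapped the oligodendrocyte-like one in the control library only. Astrocyte-like cells were the lowest of the 5, at 576 CPM (512 to 644) and 831 CPM (754 to 914). Eef2k, the kinase that inhibits eEF2, was also higher in microglia-like cells, at 93.6 and 75.8 CPM (34 and 20 UMIs) against 25.6 and 24.2 CPM elsewhere. Eef1b2, which recharges eEF1A, stood at 413 and 530 CPM there against 183 and 224 CPM. Eef1a1, Eef2k and Eef1b2 were among the 6 of 59 factors counted as higher in the microglia-like class, beside 11.4% of all genes. Eef2, Eef1d and Eef1g were not counted as higher. Eif4a1, Eif3f and Eif4e2 were the other factors higher in the class, while Eif4a2, Eif4e, Eif4g3, Eif1ax, Eif2b1 and Eif5 were lower. Eif5, which triggers GTP hydrolysis by eIF2 at the start codon, was at 151 and 102 CPM in microglia-like cells and 309 and 233 CPM elsewhere.

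Of the 14 subunit genes of eIF3, the scaffold that binds the small ribosomal subunit, 4 were counted as higher in endothelial-like cells, 1 (Eif3i) as lower and the others as neither. The shares of all genes so counted were 18.4% and 24.2%. Eif3f stood at 595 and 701 CPM in them (139 and 186 UMIs) against 303 and 324 CPM, and Eif3a, Eif3b and Eif3h were also past 1.5-fold in both libraries. Eif4ebp2, a repressor that binds the cap-binding protein eIF4E, was at 77.0 and 67.8 CPM (18 UMIs in each library) against 23.1 and 34.7 CPM. Eif2ak2, which encodes the double-stranded RNA sensor PKR, was at 42.8 and 67.8 CPM (10 and 18 UMIs) against 11.8 and 8.68 CPM. It had 0 UMIs in the neuron-like cells of both libraries. Set at 3 counts per library, this zero allows up to 16.4 and 18.5 CPM. That is above the 11.8 and 8.68 CPM outside endothelial-like cells, so the zero does not show absence. Eif4g1, Eif4g2, Eef1g, Eif1ad and Eif2b5 were the other factors counted as higher, and Eef2k and Eef1e1 the others counted as lower.

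Oligodendrocyte-like cells had the fewest factors counted in either direction, and 5 of 59 were lower, a smaller share than over all genes. Eif4ebp1, the best-known eIF4E repressor downstream of mTORC1, had 0 UMIs in them in both libraries, against 30.8 and 38.1 CPM in the other named cells. Set at 3 counts per library, the limit that a count of 0 allows, it was at least 2.41-fold and 5.17-fold lower. The zero was seen in 54 control and 80 MNPQ cells, at median depths of 4648 and 5000 UMIs. Set at 3 counts, it allows a share of cells with a UMI of up to 5.56% and 3.75%. The exact intervals of these shares reach 6.60% and 4.51%. Eif4ebp2 had 0 and 5 UMIs, Eef2k 0 and 2, Eif4e3 3 and 2, and Eef2kmt 2 and 3. In astrocyte-like cells the 16 lower factors included Eef1a1, Eef2, Eef1b2, Eif4g2, Eif4h, Eif4b, Eif3a and Eif3f. Eef2 was at 284 and 275 CPM in them and at 524 and 785 CPM elsewhere. Higher in both libraries were Eef1akmt1, a lysine methyltransferase of eEF1A, and Eif3j2, whose near-identical copy Eif3j1 makes its count uncertain.

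**Figure D2:**
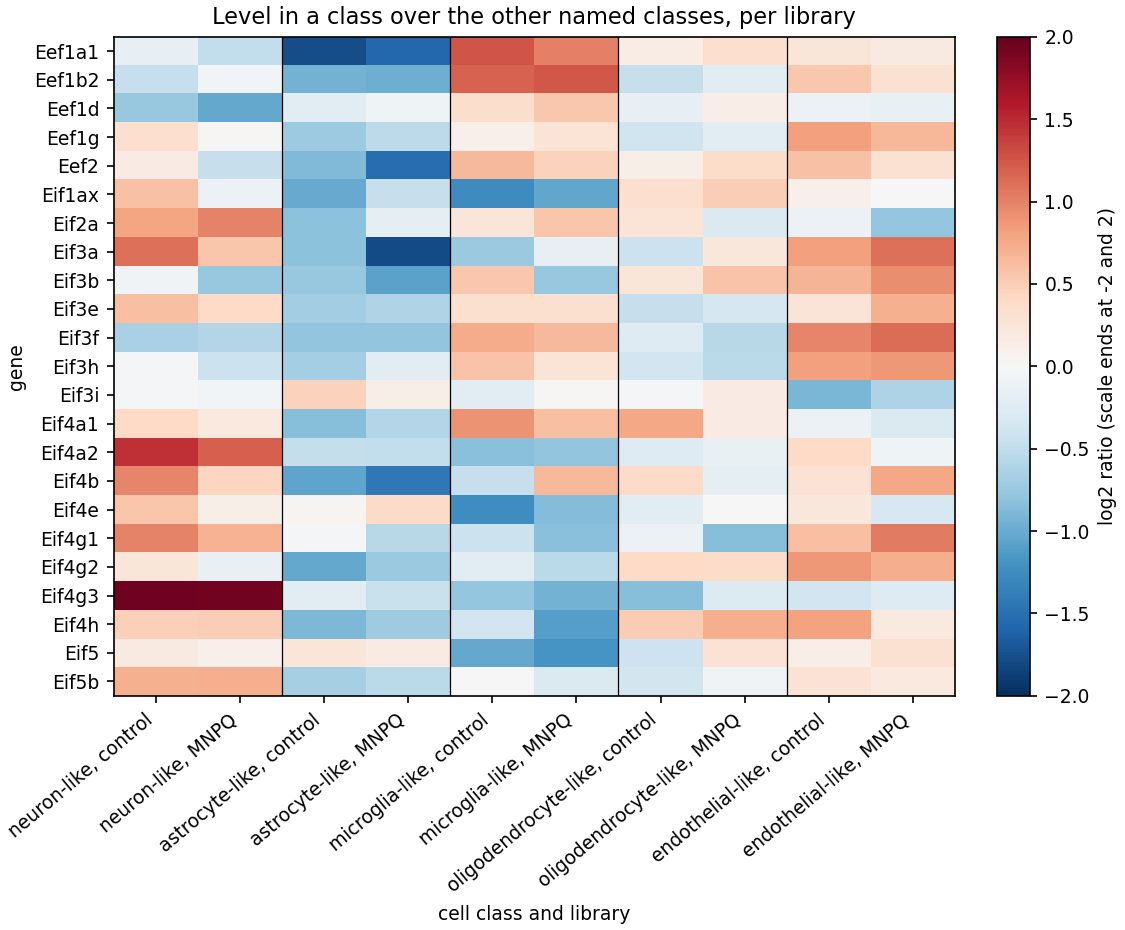
log2 ratio of the level in a class over that in all other named cells of the same library, for the 23 factors with at least 200 UMIs that were past 1.5-fold in both libraries in at least 1 class; columns are the 5 classes in each library. Eif4g3 and Eif4a2 are red in both neuron-like columns, and Eef1a1 is red in microglia-like and blue in astrocyte-like cells.

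Between the libraries, the factors' median ratio in the astrocyte-like class was above that of all genes. Of its 50 factors with at least 20 UMIs, 38 were higher and 12 lower in MNPQ, with a median log2 ratio of 0.41 beside 0.07 over all 5813 genes. With each cluster given the same weight these medians were 0.17 and -0.00. Past 1.5-fold were 12 higher and 2 lower factors, where 17.3% of all genes were past it upward and 16.7% downward. Eif1 had 642 control and 911 MNPQ UMIs, or 1223 CPM (1131 to 1322) and 1786 CPM (1672 to 1906), a log2 ratio of 0.55 (0.40 to 0.69). Eef1a1 had 302 and 424 UMIs, a log2 ratio of 0.53 (0.31 to 0.75). For both genes the intervals of the 2 levels did not overlap.

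Of the 33 astrocyte-like factors with at least 60 UMIs, 5 were past 1.5-fold, and the share of all genes at this minimum was not counted. Eif3l, an outer eIF3 subunit, had 25 and 53 UMIs, or 47.6 and 104 CPM, a log2 ratio of 1.13 (0.41 to 1.87). Eif4a3, the helicase of the exon junction complex, had 30 and 50 UMIs (0.78, 0.10 to 1.48). Eif3j1 had 32 and 51 UMIs (0.71, 0.05 to 1.40) and Eef1akmt1 23 and 37 (0.73, -0.06 to 1.54). Eif3a, the largest eIF3 subunit, went the other way with 43 and 19 UMIs, or 81.9 and 37.3 CPM (-1.14, -1.999 to -0.33). Its ratio was -0.04 when each astrocyte-like cluster had the same weight. Among those with fewer counts, Eef1e1, a partner of the tRNA synthetase complex, had 13 and 35 UMIs (1.47, 0.52 to 2.51) and Eif1ad 4 and 18. The 5 genes of eIF2B summed to 55 and 87 UMIs, a log2 ratio of 0.70 (0.20 to 1.22), and the 4 of them with at least 20 UMIs were all higher.

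**Figure D3:**
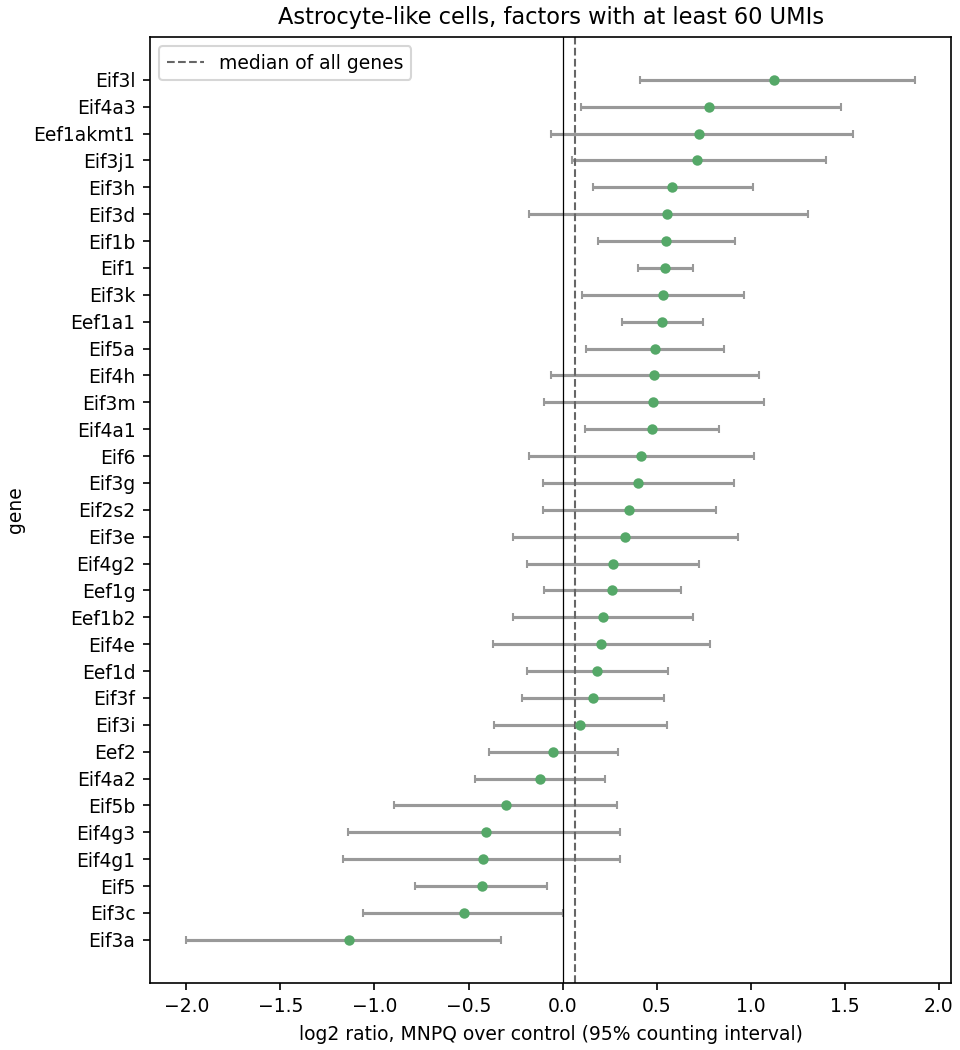
log2 ratio of MNPQ over control in astrocyte-like cells for the factors with at least 60 UMIs; points are ratios, bars 95% counting intervals, the solid line is 0 and the dashed line the median of all genes. Most points lie right of both lines, Eif3l is farthest right at 1.13 and Eif3a farthest left at -1.14.

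The astrocyte-like difference was not shared by the clusters of the class. The deeper cluster, with 112 control and 67 MNPQ cells and a median of 3422 UMIs, had 36 of 45 factors higher and 9 lower, with a median log2 ratio of 0.53 beside 0.16 over all genes. In it Eif1 had 373 and 565 UMIs (0.76, 0.57 to 0.95), Eef1a1 166 and 238 (0.68, 0.39 to 0.97), Eef1d 55 and 81 (0.72, 0.21 to 1.24) and Eif3a 31 and 9 (-1.63, -2.88 to -0.52). The shallow cluster, with 140 and 215 cells and a median of 676 UMIs, had 13 of 30 factors higher and 17 lower, with a median of -0.13 beside 0.02. In the shallow cluster the Eif1 ratio was 0.04 (-0.21 to 0.30). A cluster led by Itih3 held 66 control and 16 MNPQ cells and was too small to compare. The libraries thus drew different shares of their astrocyte-like cells from clusters of unlike depth, and the part of this in the class-wide ratios was not tested.

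In neuron-like cells the factors as a set were level between the libraries. Of 37 with at least 20 UMIs, 16 were higher and 21 lower, with a median log2 ratio of -0.08 beside 0.00 over all genes. Past 1.5-fold were 4 higher and 5 lower, against 16.4% and 18% of all genes. Eif1 had 168 and 214 UMIs, a log2 ratio of 0.52 (0.22 to 0.82). Its paralog Eif1b, with reads that may be shared, had 21 and 34 (0.87, 0.04 to 1.73). The eIF4 group leaned the other way: 7 of its 9 measured genes were lower and 2 higher, with a median of -0.28. Of the 9, 1 was past 1.5-fold lower, beside 18% of all genes. The whole group summed to 477 and 376 UMIs (-0.17, -0.37 to 0.03), an interval that includes 0. Eif4a2 had 159 and 115 UMIs, or 867 and 708 CPM (-0.29, -0.65 to 0.06). Eif3a had 45 and 24 UMIs (-0.73, -1.51 to 0.01) and Eif3c 40 and 22 (-0.69, -1.51 to 0.10), both with intervals that reach 0. Eef1b2 had 31 and 42 (0.61, -0.09 to 1.33), which became -0.065 when each cluster had the same weight.

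In oligodendrocyte-like cells 29 of 46 factors were higher and 17 lower, with a median log2 ratio of 0.13 beside 0.01 over all genes. Past 1.5-fold were 4 higher and 4 lower, against 12.5% and 12.1% of all genes. The eIF1 and eIF1A genes held the most UMIs of any group of factors, 615 and 1167 when summed. Their ratio was 0.13 (-0.01 to 0.27), an interval that includes 0. The elongation genes Eef2 and Eef1a1 were higher in MNPQ. Eef2, the translocase, had 116 and 320 UMIs, or 494 CPM (408 to 592) and 785 CPM (702 to 876), a log2 ratio of 0.67 (0.36 to 0.99). Eef1a1 had 409 and 990 UMIs (0.48, 0.31 to 0.65). Neither pair of intervals overlapped. Endothelial markers in this class summed to 80.9 and 538 CPM, and their part was not tested. Eif3c, which helps to dock eIF1 and eIF5, had 53 and 55 UMIs, or 226 and 135 CPM (-0.74, -1.31 to -0.17).

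Endothelial-like cells had 25 factors higher and 20 lower of 45, with a median of 0.10 beside 0.00. The libraries drew these cells from different clusters: 1 held 17 control and 4 MNPQ cells, another 6 and 20, another 1 and 9. Eef1a1, with 431 and 598 UMIs, had a log2 ratio of 0.29 (0.11 to 0.47), which was 0.61 when each cluster had the same weight. Past 1.5-fold were 8 higher and 1 lower, against 11.4% and 14.9% of all genes. Eif5a, the hypusine-carrying factor that helps ribosomes through difficult peptide bonds, had 73 and 129 UMIs, or 312 and 486 CPM (0.64, 0.21 to 1.07). Eif3e had 34 and 59 (0.61, -0.02 to 1.26), which ranged from 0.38 under a stricter cell filter to 1.35 with each cell weighted equally and 3.37 with cells thinned to 1000 UMIs. Hemoglobin and other erythroid markers in these cells summed to 428 and 2882 CPM, and their part in the ratios was not tested. Microglia-like cells had 26 higher and 19 lower of 45, with a median of 0.04 beside -0.07. In its deeper cluster alone, 19 of 40 were higher and 21 lower, with a median of -0.06. Past 1.5-fold were 4 higher and 3 lower, against 9.12% and 16.2% of all genes. Eef1a1 (1097 and 943 UMIs, 0.24, 0.12 to 0.37) and Eef2 (236 and 224 UMIs, 0.39, 0.12 to 0.66) were higher in MNPQ in CPM. The Eef1a1 ratio was 0.065 with each cell weighted equally. It was 0.32 (0.16 to 0.48) in the deeper cluster, and 0.09 (-0.19 to 0.37) and 0.02 (-0.30 to 0.34) in the shallower ones. Neutrophil markers in this class summed to 157 and 0 CPM, and their part was not tested. Eif3c had 36 and 42 UMIs (0.68, 0.01 to 1.37). Eif5b, which joins the ribosomal subunits, had 56 and 26 (-0.65, -1.38 to 0.05), and Eif6, which keeps them apart, 28 and 32 (0.65, -0.12 to 1.44). The last 2 changed sign under an alternative: Eif5b was 0.067 with each cell weighted equally, and Eif6 was -1.03 with cells thinned to 1000 UMIs.

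**Figure D4:**
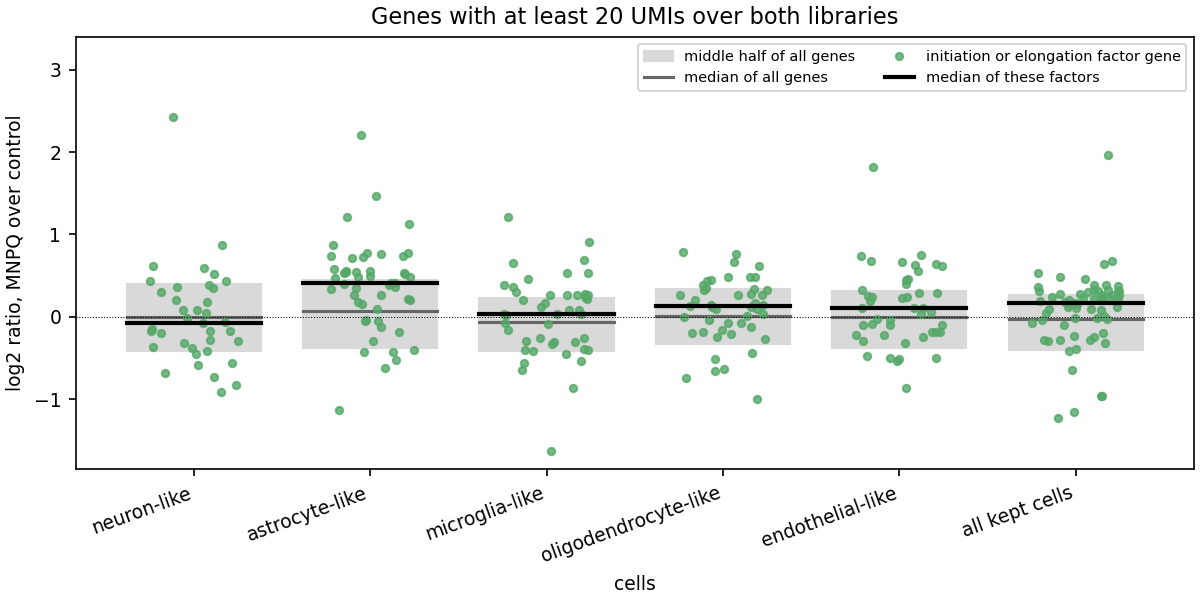
log2 ratio of MNPQ over control for each factor with at least 20 UMIs (green points) in 5 classes and in all kept cells, with the factors' median (black), the median of all genes (grey line) and the middle 50% of all genes (grey box). The factors' median lies above that of all genes in astrocyte-like cells, 0.41 beside 0.07, and the highest neuron-like point is Eef1a2 at 2.43.

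Of the 34 with at least 20 UMIs in all 5 classes, 6 were higher in MNPQ in all of them, namely Eef1a1, Eef1b2, Eif1, Eif3e, Eif3i and Eif5a, beside 9.98% of 1793 genes. Only Eif5b of these 34 was lower in all 5, beside 9.31% of the 1793. These directions did not all hold under the alternatives: in neuron-like cells Eef1a1, level in the first place at 0.04, was -0.18 and Eef1b2 -0.065 when each cluster had the same weight, and in microglia-like cells Eif5b was 0.067 with each cell weighted equally. Other directions were varied only where a factor was past 1.5-fold with at least 60 UMIs, so most were not varied. Eif3i was -0.55 in the shallow astrocyte-like cluster and Eif5a -0.08 in the deeper microglia-like one. Both intervals include 0, and both genes were higher in the other clusters measured.

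Over all kept cells, 43 of 64 factors were higher and 21 lower, with a median log2 ratio of 0.17 beside -0.03 over all genes. Past 1.5-fold were 3 higher and 5 lower, against 9.22% and 16.7% of all genes. Since the libraries hold the classes in different numbers, a ratio over all cells includes the mix of cells. The eIF1 and eIF1A genes included Eif1 itself, with 3281 and 3730 UMIs (0.22, 0.15 to 0.29), and Eif1a, with 104 and 65 (-0.65, -1.12 to -0.19), whose copy Eif1ax had 153 and 158 (0.08, -0.25 to 0.41). Reads from these copies may be split between them. The 5 eIF2 and alternative carrier genes were level when summed, with 711 and 708 UMIs (0.03, -0.13 to 0.18). Eif2s2, the most abundant of them, had 401 and 388 UMIs.

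The eIF2B genes and the eIF2 kinases leaned in opposite directions. The 5 eIF2B genes summed to 260 and 318 UMIs, a log2 ratio of 0.32 (0.08 to 0.56), with 4 higher and 1, Eif2b3, lower. Eif2b1 had 38 and 58 UMIs (0.64, 0.03 to 1.27), a ratio that turned to -0.16 with cells thinned to 1000 UMIs. The 4 kinase genes summed to 135 and 100 UMIs (-0.40, -0.79 to -0.02). Eif2ak4, which encodes the amino acid sensor GCN2, had 25 and 11 UMIs (-1.15, -2.32 to -0.08), and Eif2ak3, which encodes PERK of the endoplasmic reticulum, 26 and 13 (-0.97, -2.05 to 0.04). Eif2ak1, the heme-regulated kinase gene, had 50 and 40 UMIs, and Eif2ak2 34 and 36. At these counts only the sum and Eif2ak4 had intervals that left out 0.

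Of the 14 eIF3 genes 11 were higher and 3 lower, and they summed to 3734 and 4033 UMIs (0.14, 0.08 to 0.21). The lower ones were Eif3a (263 and 207 UMIs, -0.31, -0.58 to -0.05), Eif3c (309 and 248, -0.29, -0.53 to -0.04) and Eif3j2 (52 and 26, -0.97, -1.71 to -0.26). Eif3j1, the near-identical copy of Eif3j2, had 127 and 162 UMIs (0.38, 0.04 to 0.73), and the counting could divide reads between them. The eIF4 genes were level at 3188 and 3273 UMIs (0.07, -0.00 to 0.14). Within them Eif4a1 had 701 and 812 UMIs (0.24, 0.10 to 0.39) and Eif4a2 731 and 665 (-0.10, -0.26 to 0.05). The eIF4E repressors Eif4ebp1, Eif4ebp2, Eif4ebp3 and Eif4enif1 summed to 143 and 164 UMIs (0.23, -0.10 to 0.56).

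Of the late initiation factors, Eif5 was lower, with 563 and 412 UMIs, or 281 CPM (258 to 305) and 210 CPM (190 to 232), a log2 ratio of -0.42 (-0.61 to -0.23). Eif5b was also lower, with 309 and 231 UMIs (-0.39, -0.64 to -0.14). Eif5a was higher, with 567 and 691 UMIs (0.32, 0.16 to 0.48), and so was Eif6, with 184 and 224 (0.32, 0.03 to 0.61). Summed over the group these cancelled, at 1637 and 1574 UMIs (-0.02, -0.13 to 0.08).

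The elongation factors were higher in MNPQ when summed by role. Eef1a1 had 3177 and 4005 UMIs, or 1586 and 2045 CPM (0.37, 0.30 to 0.43). Eef2 had 932 and 1270 UMIs, or 465 and 648 CPM (0.48, 0.36 to 0.60), while in astrocyte-like cells alone it had 149 and 140 (-0.05, -0.39 to 0.29). The eEF1B genes Eef1b2, Eef1d and Eef1g and their partner Eef1e1 were all higher, with ratios from 0.05 to 0.30 and a sum of 1725 and 1873 UMIs (0.15, 0.06 to 0.25). The enzymes that modify these factors did not share a direction. Eef2kmt, the lysine methyltransferase of eEF2, had 65 and 27 UMIs, or 32.5 CPM (25.1 to 41.4) and 13.8 CPM (9.08 to 20.1), a ratio of -1.24 (-1.94 to -0.57), which was -3.80 with cells thinned to 1000 UMIs. Eef1akmt1 had 61 and 95 UMIs (0.67, 0.19 to 1.16), Eef1akmt2 76 and 63, Eef2k 74 and 61, and Eef1akmt4 9 and 11.

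Genes with CACGTG in the 250-base window had a median log2 ratio of 0.22 over all kept cells (12 genes) and those without it 0.16 (39 genes). In neuron-like cells the medians were 0.21 and -0.17, in endothelial-like cells 0.24 and -0.04, and in astrocyte-like cells 0.43 and 0.48. The direction of the gap was not the same in all classes.

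Neighbouring parts of the translation pathway were read from lists of other genes over all kept cells. Of all 12067 genes measured there, 5723 were higher and 6344 lower, with a median of -0.03. Of 9 termination and ribosome recycling genes 8 had enough UMIs, with 1 higher and 7 lower, and a median of -0.28. Past 1.5-fold lower was 1 of them, beside 16.7% of all genes. Denr, a recycling factor, had 196 and 160 UMIs (-0.26, -0.57 to 0.05), and Gspt1, the release factor eRF3, 189 and 135 (-0.45, -0.78 to -0.13). In neuron-like cells 4 of the 5 measured genes of this list were past 1.5-fold lower, where 18% of all genes were. The median of the 5 was -0.91, and the medians of their interval bounds were -2.33 and 0.38. In astrocyte-like cells 3 of 7 were past 1.5-fold upward and 1 downward, with a median of 0.04. Of all genes, 17.3% and 16.7% were past it there. Of 9 mitochondrial translation genes 7 were higher and 2 lower, with a median of 0.22, from Mrrf at 0.30 to Gfm1 at -0.40 among those with at least 60 UMIs. The 8 poly(A)-binding genes had 3 higher and 5 lower, with Pabpc1 at 432 and 366 UMIs (-0.21, -0.41 to -0.00).

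Signalling genes upstream of the factors were read in the same way. Of 15 mTORC1 and S6 kinase genes 11 were higher and 4 lower over all kept cells, with a median of 0.12 beside -0.03 over all genes. By class the median was 0.30 in astrocyte-like (7 genes), 0.08 in microglia-like (7), -0.18 in endothelial-like (7), -0.22 in oligodendrocyte-like (6) and -0.68 in neuron-like cells (3). The medians over all genes were 0.07, -0.07, -0.00, 0.01 and -0.00 in the same order. For the 3 neuron-like genes the medians of the interval bounds were -1.35 and 0.10. Akt1s1, an inhibitor of mTORC1, had 87 and 138 UMIs (0.70, 0.30 to 1.10). Of 12 measured integrated stress response genes 6 were higher and 6 lower, with a median of 0.02. Atf5, a transcription factor of this response, had 43 and 82 UMIs (0.96, 0.41 to 1.53), and Ppp1r15a, the phosphatase subunit that reverses eIF2 phosphorylation, 62 and 37 (-0.71, -1.34 to -0.10). Of 22 cytosolic aminoacyl-tRNA synthetase genes 9 were higher and 13 lower, with a median of -0.09. Nars had 302 and 202 UMIs (-0.55, -0.81 to -0.29) and Lars 89 and 50 (-0.80, -1.33 to -0.28), while Hars had 64 and 92 (0.56, 0.08 to 1.04).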

How the data were processed

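Droplet single-cell RNA was measured in 1 control and 1 MNPQ library. The deposited values are counts of UMIs for each gene in each barcode. They were made with version 3.0.2 of Cell Ranger, as the file headers state, on build mm10 per the submitters' processing notes; the filtering of barcodes before deposit is not given in the sources used here. Barcodes were kept from 200 detected genes upward if mitochondrial UMIs did not exceed 20%, and doublets were not removed. Cells were scaled to 10000 UMIs, log-transformed and clustered with scanpy 1.11.5 (2000 variable genes without the factor genes, 30 principal components, 15 neighbours, Leiden resolution 1), and mixed clusters of at least 40 cells were split again. A cluster was named where at least 3 markers and 40% of a list were past 2-fold over the rest and in at least 10% of its cells. It stayed unnamed where another list had more of its top genes, or where it was shallow and the list had none of them.

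UMIs were summed per class and library and divided by the class total (CPM). Levels have exact Poisson, log2 ratios exact conditional binomial and shares exact Clopper-Pearson 95% intervals (scipy 1.17.1), which cover counting error only, and a count of 0 is set at 3 counts for a fold. Ratios are read for genes with at least 20 UMIs over both libraries and called past 1.5-fold. Named in each class were Eef1a1, Eef1a2, the most abundant gene of a role group and genes past 1.5-fold with at least 60 UMIs, and of each other list the most abundant, highest and lowest gene; any other factor may be named with its values. The code for intervals was tested on simulated data. The genes, lists and rules were chosen with earlier results of these data known. Alternatives varied the cell filter, clustering, doublets, class totals, weighting, depth, UMI minimum and fold. Promoter windows are from RefSeq (GRCm38.p6) and gene positions from GENCODE M21.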

Additional observations from a re-analysis of the deposited data

Results flagged for a closer look

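Barcodes removed by the cell filter, which no comparison used, also held factor transcripts. The 111 removed MNPQ barcodes had 523 factor UMIs of 103305, or 5063 CPM (4638 to 5516), and the 223 removed control barcodes 865 of 207170, or 4175 CPM (3902 to 4463). The intervals do not overlap, and both levels were below those of the kept cells, at 11249 and 9925 CPM. The comparison is of 1 library with 1 library and was not tested.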

How the results depend on the processing

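The median log2 ratio of the factors kept its side of 0 in the alternatives run on the whole of the endothelial-like, microglia-like and oligodendrocyte-like classes and on all kept cells. In the deeper microglia-like cluster alone it was -0.06. In astrocyte-like cells it ranged from -0.13 (shallow cluster alone) to 0.53 (deeper cluster alone), and in neuron-like cells from -0.15 to 0.18. The gap to the median of all genes was less steady. In oligodendrocyte-like cells thinned to 1000 UMIs the factors' median was 0.127 beside 0.135 over all genes. In endothelial-like cells it was 0.106 beside 0.083 with clusters weighted equally, and 0.104 beside 0.092 with at least 100 UMIs. No paired analysis was possible because each group has 1 library.

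Counts past 1.5-fold depend on the UMI minimum and the fold. With at least 60 UMIs, the higher and lower counts were 4 and 1 of 33 in astrocyte-like, 2 and 0 of 25 in endothelial-like and 2 and 1 of 24 in microglia-like cells. They were 1 and 2 of 20 in neuron-like and 1 and 1 of 28 in oligodendrocyte-like cells, and 3 of 59 were lower over all kept cells. At 2-fold they were 4 and 1, 1 and 0, 1 and 1, 1 and 0, and 0 and 1 in the same order, and 1 and 2 over all kept cells. With class totals that leave out mitochondrial, hemoglobin and a few dominant genes, 2 were higher in neuron-like cells. Fewer genes or a higher fold give fewer calls by construction. The shares of all genes at these settings were not counted, so the calls have no background beside them.

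The Eef1a2 share of the pair in neuron-like cells was 6.97% in the control library without the cell filter and 16.1% in cells with an Slc17a7 UMI. In the MNPQ library it was 22.1% without the filter, 11.1% under a stricter filter (500 genes, 10% mitochondrial UMIs), 20.1% with each cell weighted equally, and 28.4% and 9.90% in cells with and without an Slc17a7 UMI. The splits by Slc17a7 and by cluster were chosen after the data were seen. The Eef1a2 log2 ratio ranged from 1.95 to 3.23.

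Sign changes were seen for Eef1a1 in neuron-like cells (-0.18, clusters weighted equally; -0.07 without an Slc17a7 UMI), Eif5b in microglia-like cells (0.067, each cell weighted equally), Eif6 in microglia-like cells (-1.03, thinned to 1000 UMIs), Eef1b2 in neuron-like cells (-0.065, clusters weighted equally) and Eif2b1 over all kept cells (-0.16, thinned to 1000 UMIs). The cause was not tested. Scrublet called 9 control and 6 MNPQ cells, and thinning to 1000 UMIs kept 440 and 409 cells. Depth limits the single genes: about 50.1% and 52.1% of kept cells had under 1000 UMIs.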
